A study of Mus musculus with 30 samples.

Results

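The enzymes and regulators that build fatty acids and join them into triglycerides were followed in livers and plated hepatocytes of mice with altered A1cf. A1cf encodes APOBEC1 complementation factor, an RNA-binding protein known as the cofactor of apolipoprotein B mRNA editing. The group was a fixed list of 31 genes, taken from the 41388 Ensembl genes of the deposited count tables by their symbols, and each of the 31 matched 1 gene. The RNA-seq groups were plated hepatocytes of 12-week-old mice labelled A1cf_Tg/+ (3 pools) and of C57BL/6J mice (3 pools), livers of 12-month-old mice labelled A1cf_Tg/+ (4 pools) and of C57BL/6J mice (4 pools), and livers of 12-month-old A1cf_-/- mice (3 pools) and of C57BL/6NJ mice (3 pools). RNA from 3 to 4 mice went into every pool, so the spread among pools is smaller than that among single mice. Hepatocytes were released by collagenase perfusion and kept overnight on collagen-coated dishes. The labels give neither the promoter of the transgene nor the structure of the knockout allele. The transgenic and C57BL/6J livers were sequenced in one study, and the knockout and C57BL/6NJ livers in another. A further 10 libraries held RNA crosslinked to A1CF (CLIP) in hepatocytes labelled A1cf_Tg/+.

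Liver makes fatty acids from citrate that leaves the mitochondria. ATP citrate lyase (Acly) cuts it to acetyl-CoA, acetyl-CoA carboxylase (Acaca, Acacb) and fatty acid synthase (Fasn) build palmitate, and elongases (Elovl) and desaturases (Scd, Fads) lengthen it and add double bonds. Acyl-CoA is then added to glycerol phosphate by Gpam, Gpat4 and the Agpat enzymes, lipins (Lpin) remove the phosphate, and Dgat1 and Dgat2 add the last acyl chain. SREBP-1c, encoded by Srebf1, and ChREBP, encoded by Mlxipl, are the transcription factors by which insulin and glucose are known to drive the pathway in liver.

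For the members on which the A1cf comparisons turned, the promoter windows that RefSeq holds on the GRCm38.p6 assembly are shown first, from 250 bases before to 50 bases after the annotated start. Of the 31 genes, 24 had such a window. Scd1, Scd2, Elovl3, Fads1, Gpat4, Dgat1 and Dgat2 did not. Capitals mark CCAAT or its reverse complement ATTGG, the letters known to bind the factor NF-Y, which acts beside SREBP at many lipogenic promoters. The Fasn window lies at chr11:120824498-120824797 on the minus strand, the Mid1ip1 window at chrX:10717115-10717414 on the plus strand and the Acsl3 window at chr1:78657575-78657874 on the plus strand.
Fasn: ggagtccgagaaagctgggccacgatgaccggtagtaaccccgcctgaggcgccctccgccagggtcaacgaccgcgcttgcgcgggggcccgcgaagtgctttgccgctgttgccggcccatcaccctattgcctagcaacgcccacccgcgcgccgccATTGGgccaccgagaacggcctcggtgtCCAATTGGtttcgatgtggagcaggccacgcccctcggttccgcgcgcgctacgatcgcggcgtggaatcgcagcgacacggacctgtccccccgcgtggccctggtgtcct
Mid1ip1: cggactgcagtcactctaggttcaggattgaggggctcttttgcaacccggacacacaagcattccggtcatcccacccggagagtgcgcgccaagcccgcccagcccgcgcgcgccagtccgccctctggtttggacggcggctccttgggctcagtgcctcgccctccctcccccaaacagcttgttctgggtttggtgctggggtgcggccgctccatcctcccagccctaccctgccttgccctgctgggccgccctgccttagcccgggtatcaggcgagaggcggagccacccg
Acsl3: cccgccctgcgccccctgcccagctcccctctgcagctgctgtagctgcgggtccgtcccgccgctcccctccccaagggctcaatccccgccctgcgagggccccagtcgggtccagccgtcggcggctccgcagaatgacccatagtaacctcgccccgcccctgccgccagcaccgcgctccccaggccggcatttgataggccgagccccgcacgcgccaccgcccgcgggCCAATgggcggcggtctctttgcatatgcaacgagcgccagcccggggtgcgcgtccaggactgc
The Fasn window held CCAAT letters at 2 places, one of them running in both directions, the Acsl3 window held 1 and the Mid1ip1 window held none. At least 1 such match stood in windows of 15 of the 24 members, and in those of 41.1% of the 27025 symbols in the whole RefSeq table. On either strand, TCACNCCAC, one form of the sterol regulatory element to which SREBP binds, was found in 1 of the 24 (Mlxipl) and in 1.44% of all symbols. The E-box CACGTG was found in 5 of the 24 (Elovl5, Lpin2, Lpin3, Mlxipl and Slc25a1) and in 8.09% of all symbols. A gene with several annotated starts was counted when any of its windows held the letters (33 windows for the 24 genes). These are matches of letters and not sites of binding.

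RNA-seq libraries held 17044839 to 37211328 counts, and every member had counts in all 20 of them. The hepatocyte markers Alb, Apoa1, Ttr, Cps1, Cyp3a11 and Serpina1c were present in every library, with summed levels of 35876 to 47726 CPM (counts scaled to library size) in hepatocyte pools labelled Tg and 37309 to 42963 CPM in wild-type hepatocyte pools. They summed to 64509.9 to 70743 CPM in livers labelled Tg and 93822 to 99941 CPM in C57BL/6J livers, and to 59844 to 64781 CPM in A1cf_-/- livers and 63462 to 72516 CPM in C57BL/6NJ livers. In these bulk samples, fewer cells of a type and less RNA per cell cannot be told apart. A1cf itself had 24.4, 19.7 and 29.4 CPM in A1cf_-/- livers, against 237, 206 and 197 CPM in C57BL/6NJ livers (log2 change -3.12 ± 0.15, adjusted p = 1.6e-05, edgeR). It was not higher where the label says transgenic. In hepatocytes A1cf had 7.94, 9.57 and 10.4 CPM in the pools labelled Tg, against 6.52, 10.5 and 10.6 CPM in wild-type pools. In livers it had 164, 152, 145 and 162 CPM in the pools labelled Tg, against 290.2, 218, 236 and 232 CPM in C57BL/6J pools (log2 change -0.65 ± 0.11, adjusted p = 0.0369, edgeR). The A1cf counts do not bear out these labels, and whether RNA of the transgene would be counted as A1cf is not known here. The groups are therefore called Tg-labelled throughout, and each direction given for them is that of the libraries so labelled. C57BL/6J liver pool 2 stood apart from the other 19 libraries: Xist stood at 935 CPM there, against at most 5.51 CPM elsewhere, and 4 Y-linked genes summed to 0.751 CPM, against at least 20.02 CPM elsewhere. The same pool held 1811 CPM of 10 skeletal muscle markers. A1cf_-/- liver pools 1, 2 and 3 held 89.6, 20.1 and 84.8 CPM of them, against 0.767 to 1.27 CPM in C57BL/6NJ livers and 1.88 to 2.91 CPM in the other 7 livers. Calls among the 31 genes in the A1cf comparisons are also given without C57BL/6J pool 2, and knockout changes without A1cf_-/- pools 1 and 3. These 3 pools held more than 10 times the median muscle marker sum of the livers, a limit of 21.9 CPM. A1cf_-/- pool 2 lay just below that limit and was kept. The knockout values without pools 1 and 3 are therefore not free of muscle RNA. Most other values are given with all pools only.

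Levels of different genes were compared per transcript length, as deposited RPKM (counts scaled to library size and gene length). In C57BL/6J livers Scd1, the main hepatic stearoyl-CoA desaturase, led with 1562 ± 846 RPKM (SD, n = 4), with 534 RPKM in pool 2, the lowest. Thrsp, a lipogenic regulator known as Spot 14, followed with 414 ± 112 RPKM, Dgat2 with 385 ± 19.3 RPKM and Fads2, the delta-6 desaturase, with 358 ± 105 RPKM. The levels of Thrsp, Dgat2 and Fads2 did not differ beyond their spread. At the other end were Scd2, the desaturase prominent in brain and fat, with 1.44 ± 0.554 RPKM, and Pnpla3, a lipid droplet lipase, with 0.537 ± 0.472 RPKM. In plated wild-type hepatocytes the order was led by Scd1 with 671 ± 22.5 RPKM, Fads2 with 354 ± 48.1 RPKM and the delta-5 desaturase Fads1 with 179 ± 16.5 RPKM (SD, n = 3), and Dgat2 stood sixth. Of the 31 genes, 12 had their highest group mean in C57BL/6J livers. The lowest mean was in Tg-labelled hepatocytes for 13 genes and in wild-type hepatocytes for 8. These counts were not set against those of all genes.

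In Tg-labelled against wild-type hepatocytes, the desaturase Scd2 and the acyltransferase Dgat2 rose, the desaturase Scd1 fell, and the other 28 genes did not pass an adjusted p of 0.05. The comparison called 3 of 31 genes, and 3.15% of all 13770 genes tested, 1.53% higher and 1.62% lower. The median log2 change of the 31 was -0.12, against -0.02 over all genes. Estimates were above 0 for 13 of the 31 and for 48.9% of all genes. All adjusted p-values are Benjamini-Hochberg values over all genes tested, from the edgeR quasi-likelihood test.

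Scd2 had 41.2, 57.04 and 31.3 CPM, after scaling by edgeR's TMM method, in Tg-labelled hepatocytes, against 3.67, 10.2 and 4.40 CPM in wild-type hepatocytes. Every Tg-labelled pool lay above every wild-type pool, and the means were 43.2 ± 13.0 CPM and 6.09 ± 3.58 CPM (SD, n = 3 each). The log2 change was 2.82 ± 0.45 (SE) with an adjusted p of 0.0304 by edgeR. Scd1 carries the same reaction at a far higher level. It had 1762, 1228 and 1854 CPM in Tg-labelled hepatocytes, against 3319, 3291 and 2998 CPM in wild-type hepatocytes. The groups did not overlap, and Scd1 fell by 0.99 ± 0.20 on the log2 scale (SE, adjusted p = 0.0496 by edgeR), just inside the threshold. In deposited RPKM, Scd2 made up 1.48% to 3.96% of the summed Scd1 and Scd2 level in Tg-labelled hepatocytes, against 0.0980% to 0.274% in wild-type hepatocytes. Of the 50-base stretches in Scd2 transcripts, 3.97% also occur in other genes, mostly in Scd1.

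Dgat2, which makes the bulk of hepatic triglyceride by its final step, had 432, 435 and 377 CPM in Tg-labelled hepatocytes, against 234, 195 and 198 CPM in wild-type hepatocytes. The groups were well separated, with means of 415 ± 32.8 CPM and 209 ± 21.99 CPM (SD, n = 3 each) and a log2 change of 0.99 ± 0.13 (SE, adjusted p = 0.0234 by edgeR). Its partner Dgat1, an unrelated enzyme with the same activity, averaged 34.9 ± 5.32 CPM in Tg-labelled and 27.6 ± 1.15 CPM in wild-type hepatocytes and did not pass (log2 change 0.34 ± 0.16). In RPKM, Dgat2 was 14.5 to 17.2 times Dgat1 in Tg-labelled hepatocytes, against 9.84 to 11.01 times in wild-type hepatocytes.

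**Figure D1:**
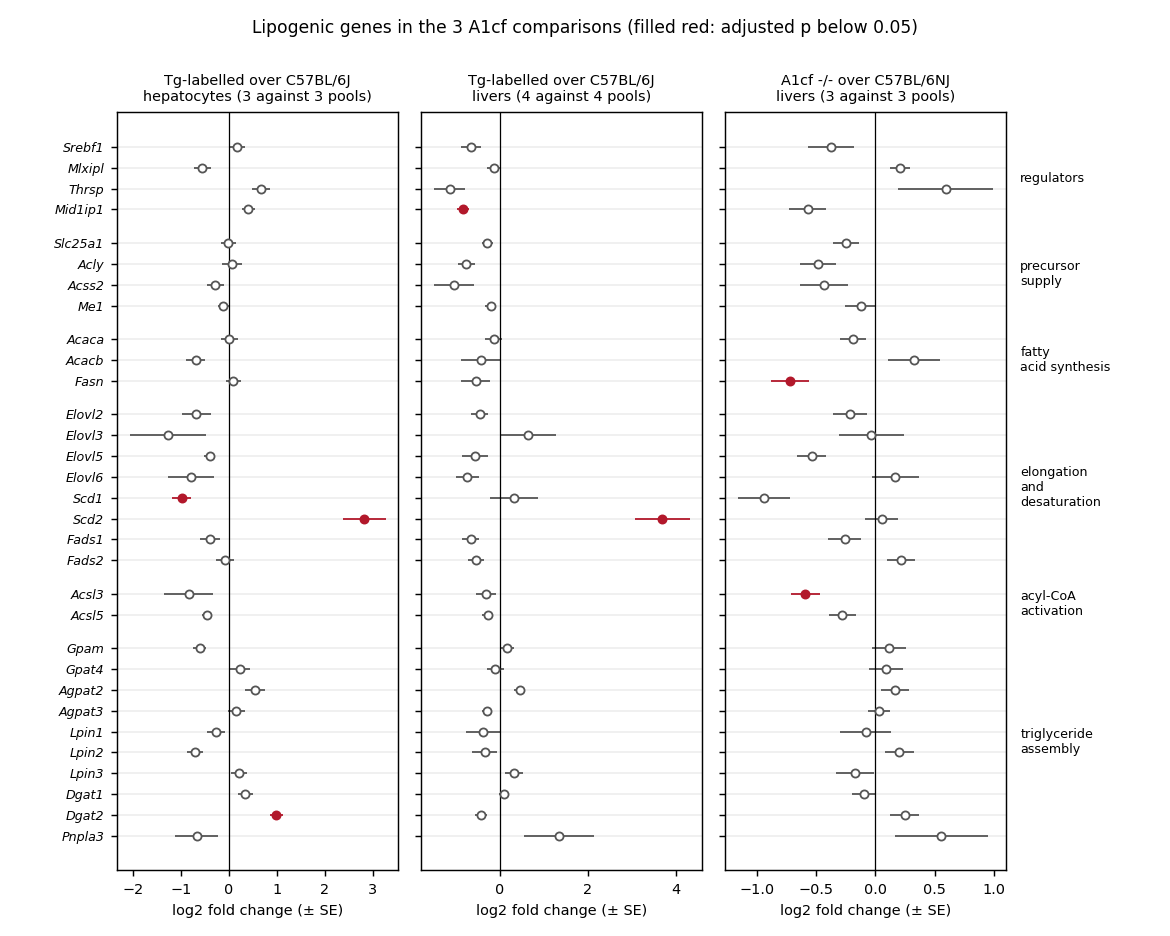
Log2 fold changes (points) with standard errors (bars) of the 31 genes, ordered by role, in the 3 A1cf comparisons. Filled red points passed an adjusted p of 0.05, and the panels have separate horizontal scales. Scd2 lies far to the right in both Tg-labelled comparisons (2.82 and 3.68) and at 0.05 in the knockout.

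The transcription factors did not pass. Srebf1 had 179, 172 and 129 CPM in Tg-labelled hepatocytes, against 145, 149 and 132 CPM in wild-type hepatocytes, and the groups overlapped. Mlxipl had 75.3, 90.4 and 63.0 CPM in Tg-labelled hepatocytes, against 129, 100.4 and 107 CPM in wild-type hepatocytes. Here every Tg-labelled pool lay below every wild-type pool, but the log2 change of -0.56 ± 0.18 (SE) had an adjusted p of 0.112 by edgeR. Fasn had 399, 396 and 395 CPM in Tg-labelled hepatocytes, against 326, 460.2 and 331 CPM in wild-type hepatocytes, with overlap. Groups did not overlap for 12 of the 31 genes, where 32.9% of all genes showed this, 16.5% in each direction. The 5 higher ones were Scd2, Dgat1, Dgat2, Thrsp and Mid1ip1, a Spot 14 relative that activates acetyl-CoA carboxylase. The 7 lower ones were Scd1, Mlxipl, Acacb, Elovl5, Gpam, Lpin2 and Acsl5. Acly, Slc25a1, the mitochondrial citrate carrier, Acaca and Me1, the malic enzyme that supplies NADPH, had estimates between -0.12 and 0.06. Of the 8 genes of elongation and desaturation, 7 had estimates below 0, the lowest Elovl3 (-1.28), and Scd2 was the exception. Among the 10 genes of triglyceride assembly, estimates ran from -0.71 for Lpin2 to 0.99 for Dgat2, with Gpat4, a glycerol phosphate acyltransferase, at 0.23, Agpat3 at 0.15 and Lpin1 at -0.27. Acsl3 had 7.77, 9.39 and 21.6 CPM in Tg-labelled hepatocytes, against 11.5, 36.0 and 22.1 CPM in wild-type hepatocytes, and the groups overlapped.

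The calls in hepatocytes depended on single pools. Without Tg-labelled pool 1 or 2, or wild-type pool 1 or 3, none of the 31 genes passed. Few of all genes did in those fits: 29 of 14260, 12 of 14295, 44 of 14322 and 0 of 14140, in that order. Without wild-type pool 2 only Scd2 passed (adjusted p = 0.0291), where 90 of all 13967 genes did. Without Tg-labelled pool 3, 6 of the 31 genes were higher and 6 lower, where 4934 of all 14103 genes passed, 1968 higher and 2966 lower. The log2 changes were then 3.05 for Scd2, 1.09 for Dgat2 and -1.07 for Scd1. Summed adipocyte-type markers were also higher in Tg-labelled hepatocytes. The 7 listed markers summed to 21.7 to 51.9 CPM in Tg-labelled hepatocytes, against 3.71 to 5.44 CPM in wild-type hepatocytes, and Cfd, Cidec and Aqp7 rose, while Adipoq was at 0 in all 6 pools and Plin1, Lep and Retn were at or below 0.0765 CPM. Of markers of macrophages (8 tested), stellate cells and fibroblasts (4), endothelium (6), bile ducts (5) and skeletal muscle (3), none passed. The 10 muscle markers summed to 17.8 to 47.1 CPM in Tg-labelled and 4.89 to 12.6 CPM in wild-type hepatocytes. Of the 3 tested, 2 had estimates above 0 and 1 below. For macrophages all 8 estimates lay above 0 (median 0.85), and the markers summed to 291 to 593 CPM in Tg-labelled and 183 to 270.3 CPM in wild-type hepatocytes. The bile duct markers summed to 406 to 669.7 CPM in Tg-labelled and 690.0 to 1223 CPM in wild-type hepatocytes. Single bile duct markers went both ways, with 3 estimates above 0 and 2 below, and a median log2 change of 1.31. The stellate cell markers summed to 31.3 to 52.4 CPM in Tg-labelled and 20.8 to 28.8 CPM in wild-type hepatocytes. The part of these marker lists in the hepatocyte results was not tested. Over genes, which are not independent, the Spearman correlation of fold change with gene length was -0.266. Adjusting the fit for length left Scd2 at 2.94 and Dgat2 at 0.84, both called, and Scd1 at -0.93 with an adjusted p of 0.0545. Mitochondrial RNA took 1.39% to 3.48% of counts in Tg-labelled and 2.01% to 3.71% in wild-type hepatocyte pools.

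In livers labelled Tg against C57BL/6J livers, Scd2 was again the member with the largest rise, and Mid1ip1 fell. The comparison called 2 of 31 genes, and 1.33% of all 14110 genes tested, 0.971% higher and 0.361% lower. The other 29 did not pass. Estimates were above 0 for 8 of the 31 genes and for 49.4% of all genes, with a median log2 change of -0.31 against -0.00 over all genes, and Mid1ip1 was the 1 lower gene that passed.

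Scd2 had 63.4, 21.1, 175 and 162 CPM in Tg-labelled livers, against 7.36, 12.4, 6.15 and 6.81 CPM in C57BL/6J livers. All Tg-labelled livers lay above all C57BL/6J livers, yet they varied widely among themselves, and the means were 105 ± 75.2 CPM and 8.17 ± 2.84 CPM (SD, n = 4 each). The log2 change was 3.68 ± 0.62 (SE) with an adjusted p of 0.0336 by edgeR. Without C57BL/6J pool 2, the highest of its group, it was 3.95 (adjusted p = 0.0337). The call was lost without Tg-labelled pool 3 or 4 or C57BL/6J pool 1, 3 or 4, with adjusted p-values of 0.0633 to 0.111 and log2 changes of 3.32 to 3.62.

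Scd1 did not pass in these livers. It had 16732, 3220.3, 9266 and 10756 CPM in Tg-labelled livers, against 6728, 2601, 9677 and 13115 CPM in C57BL/6J livers, with widely overlapping groups (log2 change 0.32 ± 0.54). In RPKM, Scd2 made up 0.335% to 1.65% of the 2 desaturases in Tg-labelled livers, against 0.0460% to 0.420% in C57BL/6J livers, where pool 2 held the 0.420%.

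Mid1ip1 had 41.9, 39.9, 35.5 and 43.3 CPM in Tg-labelled livers, against 58.5, 84.7, 66.0 and 78.1 CPM in C57BL/6J livers. The groups were apart, with a log2 change of -0.84 ± 0.13 (SE, adjusted p = 0.0285 by edgeR). Without C57BL/6J pool 2 it was -0.76 (adjusted p = 0.0312). Without Tg-labelled pool 1, Fads1 (-0.88) and Thrsp (-1.51) passed beside Mid1ip1, and without Tg-labelled pool 3 or 4 or C57BL/6J pool 3 or 4 the adjusted p was 0.0646 to 0.0933. Of the exon bases of Mid1ip1, 25.5% are overlapped by the antisense gene Gm14493, which had no counts in any of the 20 libraries. The strand setting of the counting is not given in the sources used here.

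**Figure D2:**
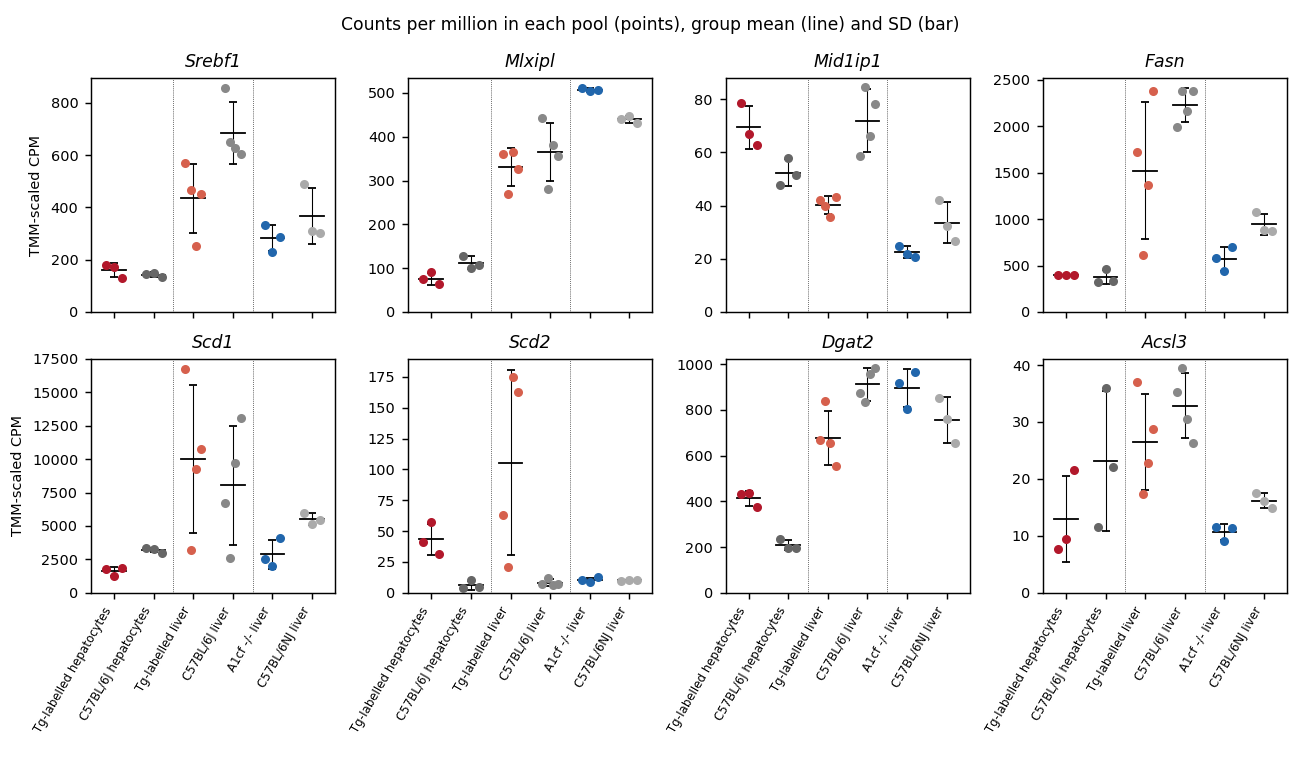
TMM-scaled CPM in each pool (points) of 8 genes, with the group mean (line) and SD (bar), for 3 pairs of groups divided by dotted lines. Scd2 is 21.1 to 175 CPM in Tg-labelled livers and at most 12.4 CPM in the wild-type pool with the most, while Fasn and Acsl3 lie lower in A1cf_-/- than in C57BL/6NJ livers.

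Srebf1 had 568, 466, 252 and 452 CPM in Tg-labelled livers, against 858, 649.5, 626 and 604 CPM in C57BL/6J livers. No pool overlapped, but the log2 change of -0.66 ± 0.23 (SE) did not pass. Other members had estimates on either side without passing: Acly had -0.76 ± 0.19, Acss2, the cytosolic acetyl-CoA synthetase, -1.04 ± 0.46, Thrsp -1.14 ± 0.35 and Fads1 -0.66 ± 0.20, while Gpam had 0.16 and Pnpla3 had 1.34. Fasn had 1723, 613, 1363 and 2379 CPM in Tg-labelled livers, against 1992, 2377, 2162 and 2372 CPM in C57BL/6J livers. Pool 2 of the Tg-labelled livers was the lowest for Fasn, Scd1 and Scd2, and its pool 4 reached the wild-type level of Fasn. Mlxipl had 361, 270.4, 364 and 326 CPM in Tg-labelled livers, against 443, 281, 382 and 355 CPM in C57BL/6J livers, and the groups overlapped. Acsl3 had 37.0, 17.4, 22.9 and 28.8 CPM in Tg-labelled livers, against 35.3, 39.4, 30.4 and 26.2 CPM in C57BL/6J livers, also with overlap. Among the elongases, which add carbon pairs to the acyl chain, Elovl2 (-0.46), Elovl5 (-0.56) and Elovl6 (-0.74) had estimates below 0 and Elovl3 (0.65) above it, none passing. All 3 synthesis genes and all 4 genes of precursor supply had estimates below 0. Dgat2 had 668, 837, 656 and 554 CPM in Tg-labelled livers, against 872, 834, 956 and 984 CPM in C57BL/6J livers, with a log2 change of -0.43 ± 0.14 that did not pass. Groups did not overlap for 6 of the 31 genes (11.7% of all genes, 6.41% higher and 5.29% lower): Scd2 and Agpat2, an acyltransferase of the second step, were higher, and Srebf1, Acly, Agpat3 and Mid1ip1 lower. The adipocyte markers summed to 36.9 to 81.9 CPM in Tg-labelled livers, against 4.10 to 17.8 CPM in C57BL/6J livers. Of the other cell type markers 1 passed: Lum, a fibroblast proteoglycan, rose (log2 change 1.74). Of 8 macrophage markers 7 had estimates above 0 and 6 an unadjusted p below 0.05, where 20.3% of all genes had one. Their sums were 349 to 521 CPM in Tg-labelled and 215 to 416 CPM in C57BL/6J livers. All 5 bile duct markers had estimates above 0, with sums of 51.8 to 126 CPM in Tg-labelled and 37.3 to 48.2 CPM in C57BL/6J livers. None of Cfd, Cidec and Aqp7 passed the test there. Without C57BL/6J pool 2, Cfd (4.25), Aqp7 and the macrophage markers Vsig4 (0.96), Cd5l (0.83) and Csf1r (0.81) rose as well. In all Tg-labelled livers Adipoq, Plin1, Lep and Retn each stayed at or below 0.145 CPM. The 6 hepatocyte markers had estimates below 0 in Tg-labelled livers, and none passed. The part of these markers in the liver results was not tested.

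The Tg-labelled change of 2 genes differed between liver and hepatocytes when the difference itself was tested (0.842% of 15565 genes passed, 0.392% higher and 0.45% lower). For Dgat2 the liver change minus the hepatocyte change was -1.60 ± 0.24 on the log2 scale (SE, adjusted p = 0.0153, edgeR). The separate fits gave -0.43 in liver and 0.99 in hepatocytes. For Mid1ip1 the difference was -1.44 ± 0.22 (SE, adjusted p = 0.0153, edgeR), and the separate fits gave -0.84 in liver and 0.41 in hepatocytes. The differences come from 1 fit over all 4 groups with its own scaling, in which the median difference of all genes was -0.09, so they are not the exact differences of the separate values. Without C57BL/6J liver pool 2 they were -1.64 for Dgat2 (adjusted p = 0.0251) and -1.35 for Mid1ip1 (adjusted p = 0.0295). The Mid1ip1 hepatocyte pools had 78.4, 66.8 and 62.8 CPM in the Tg-labelled group against 47.8, 57.7 and 51.5 CPM in the wild type. Both calls were lost without Tg-labelled hepatocyte pool 1 or 2 or wild-type hepatocyte pool 3, with adjusted p-values of 0.0559 to 0.0624, and that of Mid1ip1 also without C57BL/6J liver pool 4 (0.0598). Thrsp had a difference of -2.003 ± 0.48 that did not pass (adjusted p = 0.0668, edgeR), and Scd2 was not among the genes whose change differed. No gene of the 31 had a higher change in liver by edgeR or DESeq2, against 1 at an unadjusted p below 0.05 (Gpam), where 9.03% of all genes were. Age, plating and preparation differ together between these settings and cannot be told apart.

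In A1cf_-/- against C57BL/6NJ livers, Fasn and Acsl3 fell and no gene of the group rose. The comparison called 2 of 31 genes, and 2.98% of all 15942 genes tested, 1.5% higher and 1.48% lower. The median log2 change was -0.10, against -0.01 over all genes. Estimates were above 0 for 13 of the 31 and for 48.9% of all genes. No gene was called higher by edgeR or by DESeq2, and 1, Mlxipl, was higher at an unadjusted p below 0.05, as were 8.46% of all genes. At that threshold 7 were lower, so that 8 of the 31 passed it in either direction, as did 2941 of all 15942 genes.

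Fasn had 582, 437 and 694 CPM in A1cf_-/- livers, against 1076, 884 and 866 CPM in C57BL/6NJ livers. Each knockout pool lay below each control pool, with means of 571 ± 129 CPM and 942 ± 116 CPM (SD, n = 3 each), and Fasn fell by 0.72 ± 0.16 on the log2 scale (SE, adjusted p = 0.0477 by edgeR). Acsl3, an acyl-CoA synthetase of lipid droplets and the endoplasmic reticulum, had 11.6, 9.14 and 11.4 CPM in A1cf_-/- livers, against 17.5, 16.2 and 15.0 CPM in C57BL/6NJ livers. It fell by 0.59 ± 0.12 on the log2 scale (SE, adjusted p = 0.0358 by edgeR). Utp14b, a gene on the same strand that overlaps 5.60% of the exon bases of Acsl3, was also lower, at 9.88 to 13.3 CPM in A1cf_-/- livers and 17.4 to 18.2 CPM in C57BL/6NJ livers, and reads of the shared bases cannot be told apart.

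Just outside the threshold lay Elovl5, which elongates polyunsaturated acids, with a log2 change of -0.54 ± 0.12 (adjusted p = 0.0506, edgeR), and Scd1. Scd1 had 2498, 2037 and 4095 CPM in A1cf_-/- livers, against 5985, 5160.1 and 5441 CPM in C57BL/6NJ livers, with a log2 change of -0.94 ± 0.22 (adjusted p = 0.0537, edgeR). Its 3 knockout pools were all lower. Scd2 had 9.99, 9.01 and 12.6 CPM in A1cf_-/- livers, against 9.87, 10.6 and 10.0 CPM in C57BL/6NJ livers, with overlapping groups. Mid1ip1 had 24.9, 21.8 and 20.8 CPM in A1cf_-/- livers, against 41.9, 32.2 and 26.5 CPM in C57BL/6NJ livers, and did not pass (adjusted p = 0.088, edgeR). Srebf1 had 332, 230.1 and 286 CPM in A1cf_-/- livers, against 489.8, 310.3 and 300.2 CPM in C57BL/6NJ livers, and the groups overlapped. Mlxipl had 512, 503 and 506 CPM in A1cf_-/- livers, against 439, 447 and 432 CPM in C57BL/6NJ livers. These tight groups did not overlap, and the log2 change was 0.21 ± 0.08 without passing. Dgat2 had 917, 802 and 967 CPM in A1cf_-/- livers, against 851, 762 and 654 CPM in C57BL/6NJ livers, with overlap. Groups did not overlap for 8 of the 31 genes, 2 higher (Mlxipl, Pnpla3) and 6 lower (Acly, Fasn, Scd1, Elovl5, Mid1ip1, Acsl3), where 24.3% of all genes showed this, 11.6% higher and 12.7% lower. All 4 genes of precursor supply had estimates below 0, of -0.49 to -0.13, and 7 of 10 genes of triglyceride assembly had estimates above 0, up to 0.55, none of them passing.

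The knockout calls also leaned on single pools. Without knockout pool 1, or C57BL/6NJ pool 1 or 2, none of the 31 genes passed. Of all genes tested, 137 of 16372, 645 of 16437 and 193 of 16388 passed in those fits, in that order. Without knockout pool 2 neither Fasn (adjusted p = 0.0922) nor Acsl3 (adjusted p = 0.0904) passed, while Elovl5 did (-0.65, adjusted p = 0.0428). Without knockout pool 3, Acsl3 was lost (adjusted p = 0.0854), and Scd1 passed (-1.29, adjusted p = 0.0041). Without C57BL/6NJ pool 3, Fasn was lost (adjusted p = 0.0704), and Mid1ip1 passed (-0.72, adjusted p = 0.0319). With knockout pools 1 and 3 left out for their muscle RNA, 1 pool remained, taken to vary like the others. The log2 changes were then -1.10 for Fasn, -0.82 for Acsl3 and -1.44 for Scd1. All 8 muscle markers tested rose in A1cf_-/- livers. Of 6 hepatocyte markers 1 fell, and no macrophage, stellate cell, endothelial or bile duct marker passed. The stellate cell and fibroblast markers summed to 393 to 404 CPM in A1cf_-/- and 312 to 339 CPM in C57BL/6NJ livers. Of these 7 markers, 5 had estimates above 0 and 6 an unadjusted p below 0.05, where 2941 of all 15942 genes had one. Endothelial markers summed to 345 to 353 CPM and 303 to 334 CPM in the same groups. The part of these markers was not tested. The adipocyte markers summed to 112 to 233 CPM in A1cf_-/- livers, against 18.0 to 66.0 CPM in C57BL/6NJ livers, and Cfd, the 1 marker of 2 tested that rose, averaged 119.7 ± 48.0 CPM in A1cf_-/- and 2.47 ± 0.579 CPM in C57BL/6NJ livers (SD, n = 3 each). Without pools 1 and 3, the log2 change of Cfd was 4.88. Of genes known to respond to fasting and insulin, Pck1, Irs2 and Pdk4 rose in A1cf_-/- livers, with log2 changes of 0.56, 0.58 and 1.15, and Fgf21 fell by 1.80, while the other 3 of the 7 listed did not pass. Of 10 circadian clock genes tested, Ciart fell, with a log2 change of -0.86, and the other 9 did not pass. Without pools 1 and 3, none of Pck1 (0.67), Irs2 (0.88), Pdk4 (1.02), Fgf21 (-1.26) and Ciart (-0.89) passed. In the Tg-labelled comparisons none of these 7 feeding and 11 clock genes passed. Summed clock genes were lower, at 677 to 890.2 CPM in Tg-labelled and 957 to 1160.3 CPM in C57BL/6J livers. In hepatocytes they summed to 164 to 212 CPM in Tg-labelled and 259 to 351 CPM in wild-type pools. In liver 9 of the 11 clock genes had an unadjusted p below 0.05, where 20.3% of all genes had, with a median log2 change of -0.79. In hepatocytes 3 of the 11 had, a share near that of all genes (3973 of 13770), with a median of -0.56. Without C57BL/6J pool 2, Per2 fell (-1.18, adjusted p = 0.049, edgeR). Their part in the Tg-labelled results was not tested. The time since the last meal is not given in the labels. A1cf lies on chromosome 19 with 7 of the 31 genes (Scd1, Scd2, Elovl3, Fads1, Fads2, Gpam, Acsl5). With all pools, none of these 7 was called in the knockout, though Scd1 passed without knockout pool 3. The part of the shared chromosome was not tested.

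Between the Tg-labelled and the knockout liver changes, which share no control libraries, 1 of the 31 genes differed, where 1.02% of 16295 genes did, 0.614% higher and 0.411% lower. This was Scd2, with a Tg-labelled change minus knockout change of 3.61 ± 0.73 (SE, adjusted p = 0.0379 by edgeR). The call held without C57BL/6J pool 2 (3.88, adjusted p = 0.0232). Without the 3 pools rich in muscle RNA, which left 1 knockout pool, the difference was 4.10. The call was lost without Tg-labelled pool 3 or 4, C57BL/6J pool 1, 3 or 4, any of the knockout pools, or C57BL/6NJ pool 2 or 3 (3.25 to 3.76, adjusted p = 0.0563 to 0.121). None of the 31 genes had a lower Tg-labelled than knockout change by edgeR, against 5 at an unadjusted p below 0.05 (7.6% of all genes) and 1 by DESeq2.

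**Figure D3:**
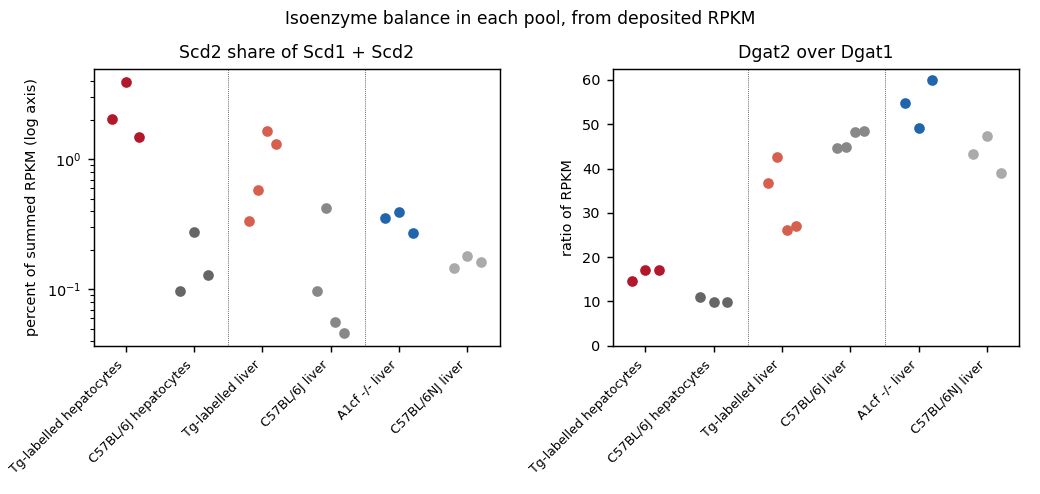
Left, Scd2 as a percentage of the summed Scd1 and Scd2 RPKM in each pool, on a log axis. Right, the ratio of Dgat2 to Dgat1 RPKM in each pool. The Scd2 share is 1.48% to 3.96% in Tg-labelled hepatocytes and at most 0.274% in wild-type hepatocytes, and the Dgat2 ratio is 14.5 to 17.2 and 9.84 to 11.01 in the same groups.

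Other genes of the pathway, 39 in all (regulators, precursor and NADPH supply, further elongases and desaturases, further acyltransferases), were counted as a second list. In Tg-labelled hepatocytes 1 of 36 tested rose and none fell, a share near the 3.15% of all genes. It was Mogat1, a monoacylglycerol acyltransferase, with 1.13, 1.81 and 1.14 CPM against 0.0303, 0.0544 and 0.0821 CPM in wild-type hepatocytes (log2 change 4.51 ± 0.47, adjusted p = 0.0123, edgeR). In Tg-labelled livers none of 37 passed by edgeR, and 12 had an unadjusted p below 0.05, against 20.3% of all genes. In A1cf_-/- livers 2 of 38 rose and 1 fell, where 2.98% of all genes passed. Pparg, the adipogenic nuclear receptor, had 18.2, 14.5 and 24.4 CPM in A1cf_-/- livers against 10.99, 9.79 and 10.6 CPM in C57BL/6NJ livers (log2 change 0.86 ± 0.17, adjusted p = 0.0327, edgeR). Mogat2, the other such acyltransferase, had 2.08, 1.19 and 5.92 CPM against 0.465, 0.0600 and 0.336 CPM in C57BL/6NJ livers (3.44 ± 0.71, adjusted p = 0.0348, edgeR). Knockout pools of both genes lay above all their control pools. Mlx, the partner through which ChREBP binds DNA, fell by 0.48 ± 0.09 (SE, adjusted p = 0.0283, edgeR), to 16.5, 17.1 and 15.9 CPM in A1cf_-/- livers against 22.6, 21.8 and 24.8 CPM in C57BL/6NJ livers. Without the pools rich in muscle RNA none of these 3 passed, with log2 changes of 0.47 for Pparg, 2.08 for Mogat2 and -0.43 for Mlx. Between plated hepatocytes and livers 14 of 37 rose and 16 fell, where 72% of all genes passed, and between C57BL/6J and C57BL/6NJ livers 5 of 39 were higher and 4 lower, where 19.8% did. Without C57BL/6J pool 2 these counts were 13 and 14 of 35, and 4 and 4 of 39, where 10207 of 14458 and 3228 of 14811 genes passed.

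Between the wild-type groups many more of the 31 genes passed. In plated C57BL/6J hepatocytes 24 of the 31 genes were lower than in C57BL/6J livers, 1 was higher and 6 did not pass, where 72% of all 14824 genes passed, 35.6% higher and 36.4% lower. The median log2 change of the 31 was -1.39, against -0.04 over all genes. All 4 regulators and all 3 synthesis enzymes were lower. Fasn had 296, 388 and 291 CPM in plated hepatocytes, against 2113, 2519, 2317 and 2529 CPM in livers, with no overlap (log2 change -2.87 ± 0.18, adjusted p = 1.1e-06, edgeR). Srebf1 (-2.55 ± 0.18), Acss2 (-2.75 ± 0.16), Lpin1, a phosphatidate phosphatase (-3.08 ± 0.41), and Thrsp (-3.90 ± 0.29) also fell. Elovl3, an elongase of saturated acids known to be higher in male than female mouse liver, had 0.192, 2.29 and 1.51 CPM in plated hepatocytes, against 69.8, 3.71, 60.5 and 45.9 CPM in livers, where the 3.71 CPM is that of the Xist-rich pool 2. Lpin3, a minor liver lipin, was the single gene to rise, with 44.8, 63.0 and 53.6 CPM in plated hepatocytes against 7.18, 6.91, 9.76 and 9.06 CPM in livers (log2 change 2.71 ± 0.18, adjusted p = 1.5e-06, edgeR). Scd2, Fads2, Me1, Slc25a1, Dgat1 and Pnpla3 did not pass. Without C57BL/6J liver pool 2, 22 of the 31 genes were lower and 1 was higher, where 4939 of all 14458 genes were lower and 5268 higher. All 6 hepatocyte markers were also lower in plated cells, with a median log2 change of -1.78, as were all 6 endothelial markers (-4.72). Age, plating and other cell types cannot be told apart here.

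Of the 31 genes 12 were higher in C57BL/6J than in C57BL/6NJ livers, 2 were lower and 17 did not pass, where 19.8% of all 15396 genes passed, 6.92% higher and 12.9% lower. The median log2 difference was 0.31, against 0.01 over all genes. Those higher were Srebf1, Thrsp and Mid1ip1 among regulators, Acly and Acss2 for precursors, Fasn, the elongases Elovl5 and Elovl6, both acyl-CoA synthetases Acsl3 and Acsl5, and Gpam and Pnpla3. Fasn had 1869, 2235, 2053 and 2272 CPM in C57BL/6J livers, against 1086, 894 and 867 CPM in C57BL/6NJ livers (log2 difference 1.15 ± 0.14, adjusted p = 0.0004, edgeR). Srebf1 had 805, 611, 594 and 579 CPM in C57BL/6J livers, against 494, 314 and 300.4 CPM in C57BL/6NJ livers (0.81 ± 0.20, adjusted p = 0.0237, edgeR). Pnpla3 had a log2 difference of 2.39, which was 1.58 without C57BL/6J pool 2. Neither Fasn nor Srebf1 overlapped between the groups. Acaca (-0.57 ± 0.11) and Me1 (-0.41 ± 0.10) were the 2 lower ones. Me1 shares 40.2% and Acaca 31.3% of their 50-base stretches with other genes, chiefly Gm7049 for Me1 and Gm5182 for Acaca, so their counts are uncertain. Without C57BL/6J pool 2, 12 were higher and 3 lower, where 1117 of all 14811 genes were higher and 2111 lower. Without C57BL/6NJ pool 2 or 3, 6 were higher, where 398 of 15339 and 535 of 15377 of all genes were. Substrain and sequencing study cannot be told apart, and these livers are also the controls of the comparisons above.

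**Figure D4:**
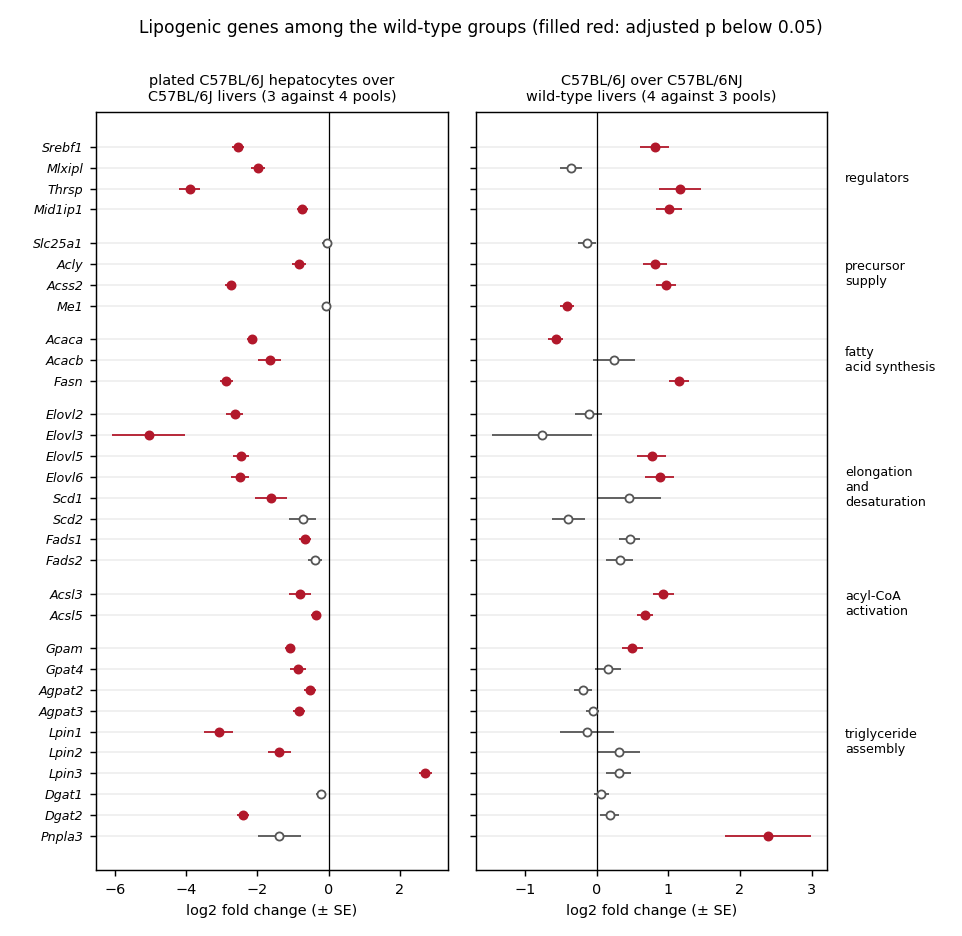
Log2 fold changes (points) with standard errors (bars) of the 31 genes between wild-type groups, on separate horizontal scales, with filled red points past an adjusted p of 0.05. On the left 24 genes are lower and Lpin3 is higher in plated hepatocytes than in liver, and on the right 12 are higher in C57BL/6J than in C57BL/6NJ livers.

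The 10 A1CF CLIP libraries held 6151 to 10902 counts each and 80854 in all, and no control library was analysed here. The 31 genes took 1844 of them, or 2.28%, against 0.591% to 0.626% of counts in Tg-labelled hepatocyte RNA, and nearly all were on Me1. Of the 31 genes 21 had no count, which allows a share of up to 0.00371% of CLIP counts, taking 3 counts as the limit. They included Scd1, the most abundant of them in the RNA, and Dgat2. Scd2 had 1 count and Fasn 5. Acaca had 17 counts (0.0210%, exact 95% interval 0.0122% to 0.0337%), against 0.00307% of RNA counts. Acsl3 had 8 counts (0.00989%, interval 0.00427% to 0.0195%), against 0.00129% of RNA counts. Me1 alone had 1805 counts, or 2.23% of the total (95% exact binomial interval 2.13% to 2.34%), against 0.0109% of counts in Tg-labelled hepatocyte RNA. Its counts fell in 5 of the 10 libraries, at 367, 375, 443, 401 and 209, and were 0 to 5 in the other 5. It ranked between 3 and 7 among all genes in the 5 libraries where it was high. These intervals and limits reflect counting error alone and not the spread between libraries. Copies of a molecule made by PCR may be counted too. Reads of Me1 and of genes that share its stretches cannot be told apart here.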

How the data were processed

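The authors deposited gene counts, CPM and RPKM for each RNA-seq library and counts for each CLIP library. The submitters' processing notes name bcl2fastq, STAR 2.0.4b, Subread, featureCounts 1.45 and GRCm38, and the deposited CPM and RPKM recompute from the deposited counts. Strand setting, annotation release and handling of multi-mapped reads are not given in the sources used here. Counts of 20 RNA-seq libraries (17044839 to 37211328) passed through edgeR's low-count filter (filterByExpr, count of at least 10 and total of at least 15), TMM scaling and a quasi-likelihood fit for each comparison (edgeR 4.0.16, R 4.3.3), with Benjamini-Hochberg adjustment over all genes tested and a threshold of 0.05. Per-pool CPM in the text are TMM-scaled within a comparison. Marker sums use the deposited CPM. Differences between changes are interaction terms. The fits were tested on simulated data. Members and lists (39 further pathway genes, cell type, feeding and clock genes) were chosen with earlier results of these data known. Values in every pool are given for members that passed in an A1cf comparison and for Srebf1, Mlxipl, Fasn, Scd1 and Dgat2, and other members by range and counts; Elovl3 and Lpin3 were picked with their values in view, and pathway genes are named where they passed. Alternatives were DESeq2 1.42.0, other scaling, no filter, single pools left out, 1 fit over 6 groups, a replicate block, length offsets and leaving out pools rich in muscle RNA. Promoter windows came from RefSeq (GRCm38.p6). No replicate pair differed by less than sampling noise. The labels do not say whether pools of a group were collected or sequenced together, so p-values measure the spread between these pools.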

Additional observations from a re-analysis of the deposited data

Results flagged for a closer look

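Of 62 gene and group combinations, 2 held 1 pool far from the other 3, where chance gives about 1 in 20. Both were in C57BL/6J liver pool 2, the pool rich in Xist and muscle RNA. Fads1 had 993 CPM there, against 708 to 752 CPM in the other C57BL/6J livers, and Pnpla3 had 5.80 CPM, against 1.25 to 1.66 CPM.

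The Tg-labelled change differed between liver and hepatocytes for Dgat2, by -1.60 on the log2 scale, and for Mid1ip1, by -1.44 (edgeR interaction term). The Tg-labelled liver change of Scd2 exceeded its knockout change by 3.61 on the log2 scale.

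In the CLIP libraries, which enter no comparison, 5 of the 31 genes had more than the 3 counts taken as the limit of a count of 0. These were Me1 with 1805 counts, Acaca with 17, Acsl3 with 8, Fasn with 5 and Srebf1 with 4, and the source of the Me1 counts was not tested.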

How the results depend on the processing

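Over 3234 recomputed values of 231 results none changed sign past the threshold, 107 lost significance and 60 gained it. A further 66, all counts of called genes, moved. Calls of the A1cf comparisons were lost often. In hepatocytes Scd1 was lost in 9, Dgat2 in 6 and Scd2 in 4 of 12 alternatives. In Tg-labelled livers Scd2 was lost in 6 and Mid1ip1 in 5 of 15, and in A1cf_-/- livers Fasn in 8 and Acsl3 in 7 of 13. Of the 31 genes, 1 was lower in Tg-labelled hepatocytes in the fits above. The number was 6 with DESeq2 and 0 with RLE scaling, with 1 fit over 6 groups, with the replicate block and with length offsets. The number higher, 2 above, was 5 with 1 fit over 6 groups, where the median of all genes moved to 0.13, and 1 with the block. Of all 13770 genes tested there, 434 passed in the fits above, 2027 with DESeq2 and 420 with RLE scaling. With the block 21 passed, with length offsets 495, and with 1 fit over 6 groups 4323 of 17267. In Tg-labelled livers 2 were higher and 5 lower with DESeq2, 2 lower with 1 fit over 6 groups, and 0 higher and 0 lower with the block. Of all 14110 genes, 188 passed there in the fits above, 1242 with DESeq2 and 44 with the block. With 1 fit over 6 groups 991 of 17267 did. In A1cf_-/- livers 5 were lower with DESeq2, 1 with RLE scaling, 6 without a filter, 0 with 1 fit over 6 groups and 4 with the block. Of all 15942 genes, 475 passed there in the fits above, 892 with DESeq2, 474 with RLE scaling and 415 with the block. Without a filter 1079 of 26361 passed, and with 1 fit over 6 groups 42 of 17267. Of liver minus hepatocyte differences 4 were lower with DESeq2, where 968 of all 15565 genes passed, 536 of them lower. Of Tg-labelled minus knockout differences 1 was lower with DESeq2, where 796 of all 16295 genes passed, 359 of them lower. The causes were not tested.

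Leaving out 1 pool at a time gave 0 to 6 of the 31 genes higher and 0 to 6 lower in Tg-labelled hepatocytes. It gave 0 to 1 higher and 0 to 3 lower in Tg-labelled livers, and 0 to 2 lower in A1cf_-/- livers. Calls among all genes tested ran from 0 to 4934, from 27 to 561 and from 137 to 645 in these comparisons, in that order. Leaving out 1 pool gave 6 to 12 higher and 1 to 3 lower in C57BL/6J against C57BL/6NJ livers, and 21 to 24 lower in plated hepatocytes. Among the liver minus hepatocyte differences 0 to 7 were lower. Among the Tg-labelled minus knockout differences 0 to 1 were higher and 0 to 1 lower. All genes called ran from 1762 to 3228, from 9744 to 10823, from 5 to 3545 and from 24 to 449, in that order.

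Pools share only a number: correlations of same-numbered pools were 0.765, -0.629 and -0.0243 in hepatocytes, -0.15 to 0.068 in the Tg-labelled and C57BL/6J livers and 0.00595 to 0.109 in the knockout and C57BL/6NJ livers, and not every pool correlated best with its own number. With 3 or 4 pools a group, small changes could not be called, and CLIP depth limits every count below a few.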
